A study of Mus musculus with 46 samples.

Results

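Fatty acid uptake and binding in the liver was followed through 10 genes chosen by name, of the 25494 genes counted in the series. They were Cd36, the fatty acid transport proteins Slc27a1, Slc27a2 and Slc27a4, the fatty acid binding proteins Fabp1, Fabp2, Fabp4 and Fabp5, the lipase Lpl and the lipoprotein receptor Vldlr. All 10 were counted by RNA-seq and passed the filter on low counts. The livers came from male C57BL/6 mice with no engineered allele, bought at 5 weeks of age and kept for up to 20 weeks on a lipid-rich diet (LD) or a carbohydrate-rich diet (CD). The LD supplied 60% of its energy as lipid, 20% as carbohydrate and 20% as protein, and is called a high fat diet in the labels. The CD supplied 10% of its energy as lipid, 70% as carbohydrate and 20% as protein, and is called a low fat diet in the labels. Both were purified diets, and no group stayed on chow. Liver RNA was sequenced for 5 mice per diet, H3K27ac was mapped in 3 libraries per diet, and Hnf4α and C/EBPα were mapped in 2 libraries each per diet. Promoter capture Hi-C (PCHi-C), which enriches a chromosome contact library for fragments that hold promoters, was made from 2 libraries per diet that the authors pooled.

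Fatty acids reach the liver as free acids bound to albumin and as triglyceride inside lipoproteins. Lpl, an enzyme held at the capillary wall of muscle and adipose tissue, cleaves lipoprotein triglyceride, and Vldlr binds triglyceride-rich particles. Cd36 is a scavenger receptor that binds long-chain fatty acids at the cell surface, and the Slc27a proteins couple fatty acid entry to activation as acyl-CoA. Inside the cell the Fabp proteins carry fatty acids through the cytosol. Fabp1 is the liver form, Fabp2 the intestinal form, Fabp4 the adipocyte and macrophage form and Fabp5 the epidermal form. Several of these genes, Cd36, Fabp4 and Lpl among them, are textbook targets of the nuclear receptor PPARγ. H3K27ac is a histone mark of active promoters and enhancers, and Hnf4α and C/EBPα are transcription factors that are abundant in hepatocytes.

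Gene counts summed to between 31707963 and 39012699 per library, and the totals of the diets overlapped. Over the 13494 genes tested with edgeR's quasi-likelihood test, 24.9% were called at a Benjamini-Hochberg adjusted p under 0.05 and a fold change above 1.2, 13.8% higher and 11.1% lower on LD, and the values of the diets did not overlap for 18.5%. The tissue was checked against 5 hepatocyte markers, whose summed level was 77290 to 94283 CPM (counts scaled to the library size) on LD and 82710 to 98440 CPM on CD. Most of that sum is the albumin gene Alb, which did not pass the test, and of the 5 markers the urea cycle gene Cps1 and the tyrosine-degrading Tat were lower on LD (log2 fold change -1.33 and -0.88, edgeR adjusted p = 0.000545 and 0.0254), and none was higher. In bulk liver, a change in RNA per cell and a change in the number of cells that make it cannot be told apart.

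Of the 10 genes, 6 were higher on LD (Cd36, Fabp2, Fabp4, Slc27a4, Lpl and Vldlr), 1 was lower (Fabp5) and 3 did not pass the test (Fabp1, Slc27a1 and Slc27a2). The diets did not overlap for 6 of the 10. The median log2 fold change of the 10 genes, LD over CD, was 0.55, beside -0.0019 over all genes tested.

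**Figure D1:**
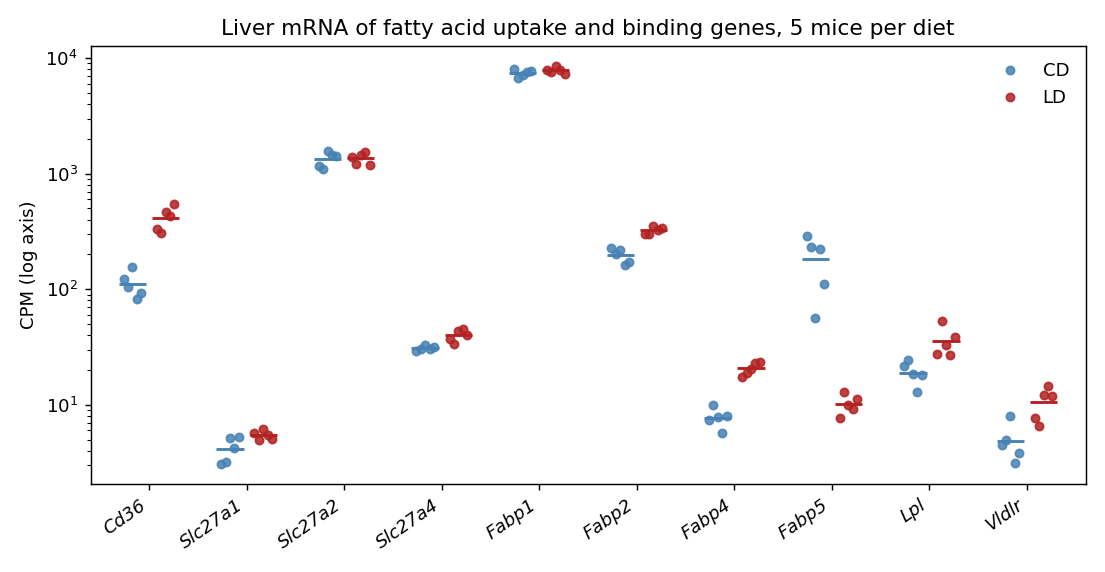
RNA level of the 10 genes in CPM on a log axis, with a point per mouse (5 per diet) and a bar at the mean of each diet. Cd36 lies at 304 to 541 CPM on LD against 81.9 to 157 CPM on CD, Fabp5 lies lower on LD in all 5 mice, and Fabp1 and Slc27a2 overlap between the diets.

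Among the genes for entry at the cell surface, Cd36 changed most. Its level was 329, 304, 462, 434 and 541 CPM in the LD mice and 122, 105, 157, 81.9 and 91.9 CPM in the CD mice. The lowest LD mouse thus stood above the highest CD mouse. The mean was 414 ± 97.8 CPM (SD, n = 5) in LD livers and 111 ± 29.4 CPM (SD, n = 5) in CD livers, a 3.72-fold difference, with a log2 fold change of 1.89 (SE 0.20, edgeR adjusted p = 0.000104).

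Slc27a4, a transport protein with broad tissue expression, rose from 30.8 ± 1.46 CPM on CD to 39.9 ± 4.72 CPM on LD (SD, n = 5 each), a 1.29-fold difference (log2 fold change 0.37, SE 0.08, edgeR adjusted p = 0.00439). The CD mice lay within 29.0 to 32.9 CPM and the LD mice within 33.8 to 45.3 CPM, so the diets did not overlap. Slc27a2, the very-long-chain acyl-CoA synthetase and main transport protein of the liver among the 3 studied, was at 1355 ± 150 CPM in LD livers and 1341 ± 205 CPM in CD livers (SD, n = 5 each). Its log2 fold change was 0.02 (SE 0.11, edgeR adjusted p = 0.934), and its ranges overlapped, at 1199 to 1537 CPM on LD and 1090 to 1566 CPM on CD. Slc27a1, a form typical of muscle and adipose tissue, was close to the lower end of the measured range. It was at 5.44 ± 0.48 CPM in LD livers and 4.18 ± 1.02 CPM in CD livers (SD, n = 5 each), with a log2 fold change of 0.38 (SE 0.16, edgeR adjusted p = 0.0909). Slc27a1 passed the threshold when the CD mouse of replicate 5 was left out (log2 fold change 0.47, edgeR adjusted p = 0.0487).

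The 4 binding proteins went different ways. Fabp5 had the largest difference of the 10 genes. Its level was 7.66, 12.9, 9.90, 9.13 and 11.2 CPM in the LD mice and 287, 233, 56.8, 222 and 110 CPM in the CD mice. All LD mice were below all CD mice, and the CD mice themselves spread over a wide range, with replicates 3 and 5 lowest. The means were 10.2 ± 2.0 CPM in LD livers and 182 ± 95.0 CPM in CD livers (SD, n = 5 each), 17.9-fold lower on LD, with a log2 fold change of -4.16 (SE 0.46, edgeR adjusted p = 0.000367). Leaving out any 1 library gave log2 fold changes between -4.39 and -3.94. The mouse genome holds processed copies of Fabp5, and how reads shared with such copies were assigned was not tested.

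Fabp4 was at 17.5, 18.7, 20.5, 23.0 and 23.6 CPM in the LD mice and at 7.33, 9.95, 7.76, 5.72 and 8.03 CPM in the CD mice. The diets did not overlap. The means were 20.6 ± 2.65 CPM and 7.76 ± 1.52 CPM (SD, n = 5 each), 2.65-fold higher on LD (log2 fold change 1.41, SE 0.13, edgeR adjusted p = 1.9e-05).

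Fabp2 was at 302, 303, 350, 324 and 337 CPM in the LD mice and at 228, 201, 218, 163 and 172 CPM in the CD mice. Every LD mouse was above every CD mouse. The means were 323 ± 21.2 CPM and 197 ± 28.4 CPM (SD, n = 5 each), 1.64-fold higher on LD (log2 fold change 0.72, SE 0.10, edgeR adjusted p = 0.000184). Fabp2 lies inside an intron of 4933405D12Rik, and the authors counted reads by strand. Fabp1 was at 7858 ± 475 CPM in LD livers and 7425 ± 498 CPM in CD livers (SD, n = 5 each), with overlapping ranges in CPM and a log2 fold change of 0.08 (SE 0.08, edgeR adjusted p = 0.465). Over the alternatives its log2 fold change ran from 0.048 to 0.16 and its adjusted p from 0.0453 to 0.732, and it was never called.

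Lpl was at 27.6, 52.8, 33.1, 27 and 38.3 CPM in the LD mice and at 21.5, 24.4, 18.4, 12.8 and 17.9 CPM in the CD mice. The diets did not overlap, and the LD mouse of replicate 2 stood above the other LD mice. The means were 35.8 ± 10.6 CPM and 19.0 ± 4.34 CPM (SD, n = 5 each), 1.88-fold higher on LD (log2 fold change 0.91, SE 0.21, edgeR adjusted p = 0.00887).

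Vldlr was at 7.66, 6.57, 12.1, 14.4 and 12 CPM in the LD mice and at 4.49, 4.91, 7.96, 3.14 and 3.81 CPM in the CD mice. The highest CD mouse lay above the lowest pair of LD mice, so the ranges overlapped. The means were 10.5 ± 3.30 CPM and 4.86 ± 1.86 CPM (SD, n = 5 each), 2.16-fold higher on LD (log2 fold change 1.11, SE 0.27, edgeR adjusted p = 0.0116).

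Levels of different genes were compared in TPM, in which counts are scaled to transcript length as well as to the library. Fabp1 led on both diets, with a mean of 30244 TPM on LD and 27069 TPM on CD, followed by Slc27a2 with 1114 TPM and 1048 TPM. Unlike in CPM, the diets did not overlap for Fabp1 in TPM, at 28841 to 32749 on LD and 25203 to 28214 on CD. On LD the order went on with Fabp2 (636 TPM), Cd36 (201 TPM), Fabp4 (61.2 TPM), Fabp5 (20.3 TPM), Slc27a4 (18.9 TPM), Lpl (16.8 TPM), Slc27a1 (3.69 TPM) and Vldlr (2.41 TPM). The ranges of Fabp5 and Slc27a4 overlapped there, as did those of Slc27a4 and Lpl. On CD, Fabp5 came after Fabp2, with 341 TPM and a range that overlapped the one of Fabp2 (365 TPM), ahead of Cd36 (50.9 TPM) and Fabp4 (21.8 TPM). Slc27a4 (13.8 TPM), Lpl (8.42 TPM), Slc27a1 (2.69 TPM) and Vldlr (1.05 TPM) closed the order on CD with ranges that did not overlap between neighbours.

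The genes that work with these 10 were counted in 5 lists. Of 10 partners and regulators of Lpl tested, 1 was called higher and 2 lower on LD, beside 13.8% and 11.1% of all genes. Gpihbp1, which anchors Lpl to the capillary wall, had a log2 fold change of 0.34 (edgeR adjusted p = 0.0317). Lipc, the hepatic lipase, fell by 0.72 on the log2 scale (edgeR adjusted p = 3.6e-05). Of 5 other lipoprotein receptors tested, Lrp1, Lsr and Scarb1 fell by 0.73, 0.53 and 0.29 on the log2 scale (edgeR adjusted p = 0.00114, 0.000413 and 0.0376). Of 6 other transport and binding proteins tested, 1 was lower, the caveolar coat protein Cav1 (log2 fold change -0.81, edgeR adjusted p = 0.0157), and none was higher. Of 5 genes for activation and binding as acyl-CoA, the ligase Acsl3 was higher (log2 fold change 0.41, edgeR adjusted p = 0.00977) and 4 did not pass the test.

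Of 8 nuclear receptors and factors known to act on uptake genes, Pparg and Ppara were higher on LD and 6 did not pass the test. Pparg, which encodes PPARγ, was at 43.2 ± 8.64 CPM in LD livers and 16.2 ± 0.899 CPM in CD livers (SD, n = 5 each), with no overlap between the diets and a log2 fold change of 1.41 (SE 0.12, edgeR adjusted p = 1.3e-05). Ppara had a log2 fold change of 0.34 (edgeR adjusted p = 0.016). Among the 6, Hnf4a and Cebpa, which encode the factors mapped here and are named after their values were seen, missed only the fold change threshold, with log2 fold changes of -0.26 each (edgeR adjusted p = 0.0176 and 0.0202). The median log2 fold change was -0.03 for the Lpl partners, -0.29 for the lipoprotein receptors, -0.19 for the other transport and binding proteins, 0.02 for the acyl-CoA list and -0.12 for the factors, beside -0.0019 over all genes.

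Cd36, Fabp4, Fabp5, Lpl and Vldlr are also expressed outside hepatocytes. Some markers of other cell types were higher on LD, beside 13.8% of all genes tested, and most macrophage, stellate and endothelial markers were not called. Of 10 macrophage markers, 4 were higher on LD, with the greatest changes in Gpnmb, Trem2 and Itgax, and none was lower, and their summed level was 392 to 902 CPM on LD and 278 to 551 CPM on CD. Of 6 stellate cell and fibroblast markers, Col1a1 and Dcn were higher, with sums of 483 to 782 CPM on LD and 533 to 634 CPM on CD. Of 6 endothelial markers, Lyve1 was higher, with sums of 398 to 557 CPM and 440 to 547 CPM. The sums of the macrophage, stellate and endothelial lists overlapped between the diets. Of 6 adipocyte markers, Cfd and Lipe passed the count filter and both were higher, Cfd 43.5-fold (4374 counts in all on LD and 94 on CD), with sums of 19.1 to 62.8 CPM on LD and 13.3 to 19.1 CPM on CD, whereas Plin1 and Lep were at 0 counts in every mouse, Adipoq had 2 counts in all on LD and 7 on CD, and Retn had 4 and 1. Of 6 enterocyte markers, Apoa4, which hepatocytes also make, was the one that passed the filter, and it was higher on LD. The part of other cell types in the differences of the 10 genes was not tested.

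For each of the 7 genes called, the genes with the most similar pattern were sought by Pearson's r of log2 CPM over the 10 mice, among 12073 genes with at least 1 CPM on average. The diet difference itself raises these values, so r is also given for deviations from the diet means, and all values are descriptions. Cd36 was most like Pigp, Orm2 and Osbpl3 (r = 0.989, 0.989 and 0.986, and 0.884, 0.882 and 0.854 within diets). Fabp4 was most like the collagens Col3a1 and Col12a1 and Enc1 (r = 0.992, 0.98 and 0.982, and 0.934, 0.923 and 0.895 within diets). Fabp5 was most like the leptin receptor gene Lepr, Apom and Fgg (r = 0.981, 0.978 and 0.978, and 0.822, 0.77 and 0.744 within diets). Vldlr was most like Dusp10 and Lrrc28 (r = 0.968 and 0.967, and 0.914 and 0.927 within diets), and Lpl was most like Vsir, Tm6sf1 and Pkib (r = 0.983, 0.983 and 0.98, and 0.953, 0.954 and 0.949 within diets). Fabp2 was most like Tceal8, Rbl1 and Pkp2 (r = 0.986, 0.982 and 0.981, and 0.905, 0.87 and 0.877 within diets), and Slc27a4 was most like Rogdi, Clybl and Aplp2 (r = 0.991, 0.985 and 0.984, and 0.973, 0.961 and 0.96 within diets). Among the 10 genes, the closest pairs within diets were Cd36 with Vldlr (r = 0.908), Slc27a1 with Slc27a2 (r = 0.848) and Cd36 with Fabp2 (r = 0.825), and Fabp5 ran opposite to Slc27a1 (r = -0.829), all over the same 10 mice and libraries.

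H3K27ac was compared as the number of bases covered by called peaks from 20 kb before to 20 kb after each gene. By limma over 17651 genes, 5.63% were called at an adjusted p under 0.05, 5.0% higher and 0.635% lower on LD, and the diets did not overlap for 27.6%. Peaks covered more of the genome in the LD libraries, 149.8 to 160.4 Mb against 139.7 to 145.4 Mb, and the median log2 fold change over all genes was 0.104, against -0.006 when coverage was scaled to the total of each library. The median of the 10 genes was 0.39. Of the 10 genes, 4 were called, with Cd36, Fabp4 and Lpl higher and Fabp5 lower on LD, and the diets did not overlap for 8.

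Around Cd36, peaks covered 45400, 45600 and 48800 bp in the LD libraries and 25600, 27000 and 35600 bp in the CD libraries. All LD libraries were above all CD libraries, a 1.58-fold difference in the means (log2 fold change 0.66, SE 0.12, limma adjusted p = 0.0300). The gene is 107270 bp long on the minus strand of mm9 chromosome 5. Inside it, the locus at chr5:17344400-17357199, chosen after its values were seen like the others named here, was covered over 11400, 9200 and 11000 bp on LD and 4600, 4000 and 8200 bp on CD. That at chr5:17381800-17388199, in an intron near the start, was covered over 4600, 6200 and 6200 bp on LD and 3200, 1200 and 3600 bp on CD. The start site, taken as the outer end of the annotated gene (position 17394777), was under a peak in 1 library of the 6, an LD one. Other starts inside the gene were not examined. Scaled to the total coverage, Cd36 had a log2 fold change of 0.54 (limma adjusted p = 0.0573).

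Around Lpl, peaks covered 5232, 5800 and 5032 bp on LD and 2200, 1400 and 1800 bp on CD, without overlap, 2.98-fold in the means (log2 fold change 1.19, SE 0.16, limma adjusted p = 0.0121). The peak at the start site was present in all 6 libraries. A locus 28.3 kb from the start and downstream of the gene, chr8:71432000-71433599, was covered over 1200, 800 and 1600 bp in the LD libraries and was not called in any CD library. It was the one H3K27ac locus near the 10 genes that was called in all libraries of 1 diet and none of the other, 1 of 38. Of all H3K27ac loci within 20 kb of any gene, 2.35% were called in every LD library and no CD library, and 0.561% in every CD library and no LD library. In a window of 20 kb around the start site, the difference at Lpl was 0.50 on the log2 scale (limma adjusted p = 0.112).

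Around Fabp5, peaks covered 8200, 7400 and 6600 bp on LD and 16800, 14200 and 13200 bp on CD, 1.99-fold lower on LD without overlap (log2 fold change -0.90, SE 0.13, limma adjusted p = 0.0153). The locus over the gene and downstream of it, chr3:10011000-10024199, accounted for most of this, with 5400, 5400 and 5200 bp on LD and 13200, 11200 and 10000 bp on CD. Around Fabp4, on the same chromosome, peaks covered 6200, 7000 and 9000 bp on LD and 2800, 4600 and 3600 bp on CD (log2 fold change 0.85, SE 0.19, limma adjusted p = 0.0477). The neighbouring binding protein genes thus differed in opposite directions in both RNA and H3K27ac. The call for Fabp4 was lost under each of the alternatives tried (limma adjusted p from 0.052 to 0.15).

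The remaining genes did not pass the test. Slc27a4 was covered over 9400, 9200 and 9600 bp on LD and 8200, 7400 and 5600 bp on CD (log2 fold change 0.38, limma adjusted p = 0.161). Vldlr, with its single locus over the start site, was covered over 2800, 3000 and 3000 bp on LD and 2000, 2000 and 1600 bp on CD (log2 fold change 0.46, limma adjusted p = 0.0988). Fabp2 was covered over 6400, 9400 and 8000 bp on LD and 5200, 5800 and 6200 bp on CD (log2 fold change 0.40, limma adjusted p = 0.171). These 3 genes did not overlap between the diets, nor did Fabp1, where a single locus was lower on LD by a small margin (25933 ± 503 bp on LD and 27000 ± 346 bp on CD, SD, n = 3 each). Slc27a1 and Slc27a2 overlapped. An exact two-sided permutation test for a single gene, 3 libraries against 3, gave p = 0.1 for each of the 8 genes without overlap, the smallest it can give. Leaving out 1 library at a time left between 0 and 3 of the 10 genes called. None remained without LD replicate 2 (lowest limma adjusted p = 0.0628) or LD replicate 3 (0.0649), 1 was left without CD replicate 1, 2 without LD replicate 1 and 2 without CD replicate 2.

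**Figure D2:**
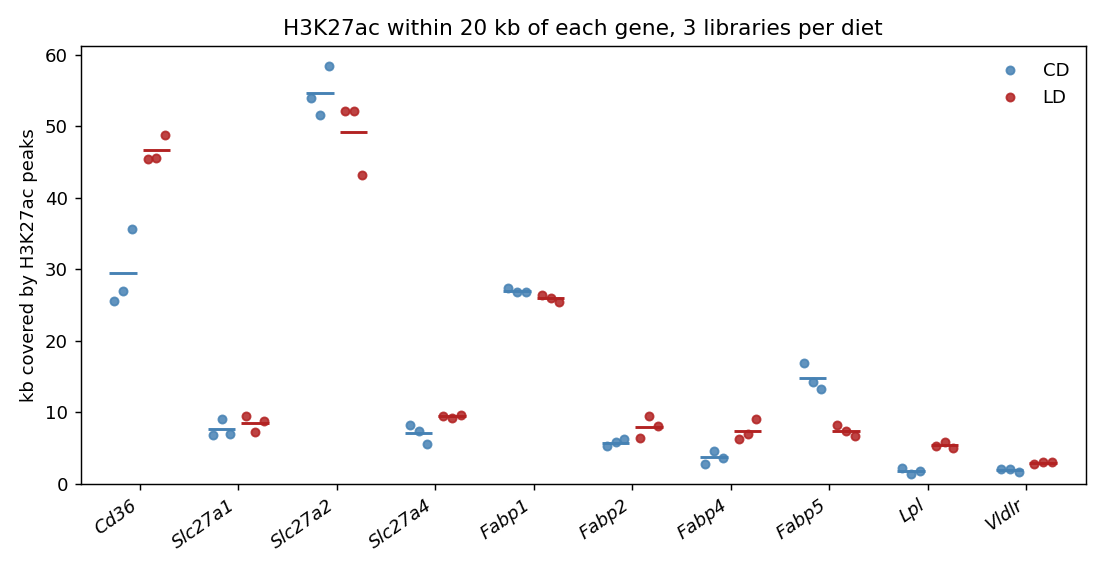
Length covered by H3K27ac peaks within 20 kb of each gene, in kb, with a point per library (3 per diet) and a bar at the mean. Cd36, Fabp4 and Lpl lie higher on LD in all libraries, Fabp5 lies lower on LD, and Slc27a1 and Slc27a2 overlap.

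The factor libraries differed among themselves beyond the diets. At the 23344 Hnf4α loci found in all 4 libraries, the median peak height (tags scaled by the authors to a common library size) was 35.8 and 33.5 in the LD libraries and 21.5 and 42.8 in the CD libraries, so the CD libraries lay on either side of the LD libraries. At the 13813 C/EBPα loci found in all 4, it was 24.0 and 25.5 in the LD libraries and 37.5 and 25.0 in the CD libraries. Heights were summed over the peaks within 20 kb of each gene. The median log2 fold change over all genes was 0.154 for Hnf4α and -0.307 for C/EBPα, against 0.006 and -0.071 when heights were scaled to the shared peaks.

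For Hnf4α, limma called 0% of 16227 genes (390 at an unadjusted p under 0.05), and the diets did not overlap for 20.4%. None of the 10 genes was called, none had an unadjusted p under 0.05, and none was called after scaling to the shared peaks. The diets did not overlap for Cd36, Fabp4 and Lpl. The sum at Cd36 was 320.2 and 291 in the LD libraries and 131 and 284 in the CD libraries. At Lpl it was 21.8 and 14.5 in the LD libraries and 6.75 and 10.25 in the CD libraries. At Fabp4 it was 11.2 and 21.8 on LD, whereas no peak was listed in either CD library. At Slc27a2 (382 and 282 on LD, 235 and 632 on CD) and Fabp2 (194 and 183 on LD, 62.2 and 210 on CD), the CD sums lay on either side of the LD sums, as at the shared loci.

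For C/EBPα, limma called 1.44% of 17342 genes (2968 at an unadjusted p under 0.05), and the diets did not overlap for 49.8%. Of the 10 genes, 8 passed the filter on low values, none of the 8 was called, 3 had an unadjusted p under 0.05 (Cd36, Slc27a1 and Slc27a2), and 4 did not overlap (Cd36, Fabp2, Slc27a2 and Vldlr). The sum at Cd36 was 179.5 and 192 in the LD libraries and 109 and 65.5 in the CD libraries, 2.13-fold in the means (log2 fold change 1.05, SE 0.34, limma adjusted p = 0.0861). Scaled to the shared peaks, it passed the threshold (log2 fold change 1.33, limma adjusted p = 0.0049), and the range of adjusted p over all alternatives was 0.0049 to 0.947. The sum was lower on LD at Slc27a2 (258.5 and 237.5 on LD, 495.5 and 346 on CD), Fabp2 (19.5 and 20 on LD, 44.0 and 33.5 on CD) and Vldlr (9.0 and 6.5 on LD, 31.5 and 19.5 on CD), with limma adjusted p of 0.243, 0.384 and 0.341. No C/EBPα peak lay within 20 kb of Fabp4, and at Fabp5 1 peak was listed in both LD libraries and in no CD library, under the filter.

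**Figure D3:**
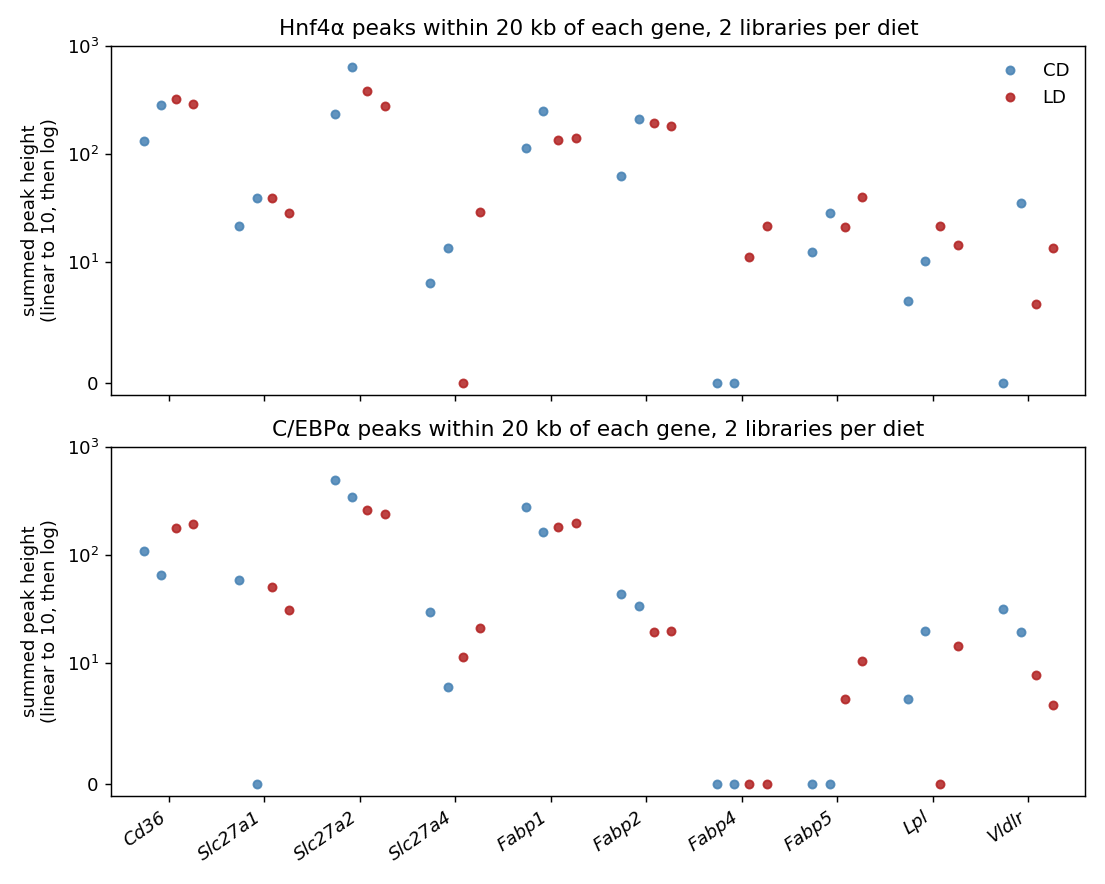
Summed height of Hnf4α peaks (top) and C/EBPα peaks (bottom) within 20 kb of each gene, in scaled tags, with a point per library (2 per diet). The axis is linear up to 10 and logarithmic above. At Cd36 both LD libraries lie above both CD libraries for either factor, and at Slc27a2 the CD libraries lie on either side of the LD libraries for Hnf4α and above them for C/EBPα.

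Near the 10 genes, 57 Hnf4α loci and 52 C/EBPα loci were found in at least 1 library, 18 and 10 of them in all 4. In both LD libraries and no CD library there were 2 Hnf4α and 6 C/EBPα loci, and in both CD libraries and no LD library 1 and 3. Of all loci within 20 kb of any gene, 4.65% for Hnf4α and 5.41% for C/EBPα were in both LD libraries alone, and 2.77% and 1.94% in both CD libraries alone. The counts near the 10 genes are few and were not tested against these shares, and the sites described next are single examples. The highest peaks are given here with other sites that were chosen after their values were seen. The highest peak near Cd36 was shared by both factors, in an intron 25.7 kb into the gene. Its Hnf4α height was 152 and 126 in the LD libraries and 69.5 and 126 in the CD libraries, and its C/EBPα height was 57.5 and 76.5 in the LD libraries and 62.5 and 42.5 in the CD libraries. At this site the diets overlapped for both factors. A second Cd36 intron site, 12.2 kb into the gene, carried C/EBPα heights of 48.0 and 52.5 on LD and 16.5 and 9.0 on CD, whereas a locus at chr5:17355426-17355754 was listed for C/EBPα in both CD libraries (9.0 and 6.5) and in no LD library. An Hnf4α peak 7.3 kb into Cd36 was listed in both LD libraries (27 and 24.2) and in no CD library. The highest Hnf4α peaks of the abundant liver genes lay 10.1 kb before Fabp1 (47.0 and 38.2 on LD, 34.2 and 72.2 on CD) and 2.7 kb into Slc27a2 (112.5 and 115 on LD, 63.8 and 164.5 on CD). The Hnf4α peak of Fabp4, in an intron 2.0 kb into the gene, had heights of 11.2 and 15.8 on LD and was not listed on CD. A C/EBPα peak 3.1 kb before Fabp5 had heights of 7.0 and 10.5 on LD and was not listed on CD. Vldlr had C/EBPα loci of either kind. At 2.1 kb into the gene, heights were 25.0 and 12.5 on CD with no peak on LD, and 0.2 kb before its start they were 9.0 and 6.5 on LD with no peak on CD. At Lpl, a C/EBPα peak 46.0 kb from the start was listed in 1 LD library (14.5), beside an Hnf4α peak at 46.2 kb with heights of 16.5 and 14.5 on LD and 6.8 and 0 on CD.

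The 200 bases at the centre of 6 of these peaks are shown because they hold the highest or the diet-specific peaks of the genes that differed, and, for Fabp1, of the most abundant gene. They were read from mm9 on the plus strand. Capitals mark matches to 3 strings searched on both strands: CAAAGTCCA for HNF4, TTGCNNAA for C/EBP and GGNCANAGG for the core of a DR1, the direct repeat that PPAR and HNF4 bind. The HNF4 and DR1 strings can overlap.
Cd36 intron, both factors, chr5:17369016-17369215: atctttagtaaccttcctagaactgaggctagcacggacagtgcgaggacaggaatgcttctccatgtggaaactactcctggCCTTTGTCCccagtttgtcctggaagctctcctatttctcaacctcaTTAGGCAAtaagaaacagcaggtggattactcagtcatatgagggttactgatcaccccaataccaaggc
Fabp4 intron, Hnf4α on LD, chr3:10206475-10206674: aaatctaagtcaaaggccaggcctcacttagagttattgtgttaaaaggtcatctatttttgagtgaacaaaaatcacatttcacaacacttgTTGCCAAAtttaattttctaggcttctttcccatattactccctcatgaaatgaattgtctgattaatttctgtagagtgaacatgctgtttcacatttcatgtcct
Fabp5 upstream, C/EBPα on LD, chr3:10009374-10009573: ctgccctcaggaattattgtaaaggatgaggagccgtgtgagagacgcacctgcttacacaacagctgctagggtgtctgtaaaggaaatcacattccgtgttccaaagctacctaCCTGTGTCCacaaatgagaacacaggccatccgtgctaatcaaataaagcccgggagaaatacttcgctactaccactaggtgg
Lpl downstream, C/EBPα in 1 LD library, chr8:71450380-71450579: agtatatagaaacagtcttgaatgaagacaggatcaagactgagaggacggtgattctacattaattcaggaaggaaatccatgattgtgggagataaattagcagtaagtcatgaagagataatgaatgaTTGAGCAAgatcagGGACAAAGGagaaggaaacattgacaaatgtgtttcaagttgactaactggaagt
Vldlr intron, C/EBPα on CD, chr19:27293487-27293686: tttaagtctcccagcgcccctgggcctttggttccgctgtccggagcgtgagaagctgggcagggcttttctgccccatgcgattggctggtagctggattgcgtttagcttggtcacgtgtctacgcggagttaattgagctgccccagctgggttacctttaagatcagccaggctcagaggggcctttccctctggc
Fabp1 upstream, Hnf4α, chr6:71139651-71139850: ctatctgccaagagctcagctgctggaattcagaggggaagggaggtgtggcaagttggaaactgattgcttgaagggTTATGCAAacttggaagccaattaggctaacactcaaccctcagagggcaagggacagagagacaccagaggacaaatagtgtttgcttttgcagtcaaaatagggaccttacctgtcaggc

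The Cd36 site held a DR1 match and a C/EBP match, as did the Lpl site. The Fabp4 and Fabp1 windows, both from Hnf4α peaks, held a C/EBP match, the Fabp5 window held a DR1 match, and the Vldlr window held none of the 3. Among the 46335 windows of the same length in Hnf4α peaks of LD replicate 1, 5.12% held the HNF4 string, 17.8% the C/EBP string and 12.9% the DR1 string. Among 38250 windows of C/EBPα peaks of that replicate number, the shares were 1.55%, 37% and 7.93%. In the RefSeq promoters (GRCm38.p6, 250 bases before to 50 after the start), 7 of the 10 genes had an entry, and Fabp4, Fabp5 and Lpl had none. These entries were not matched to the mm9 start sites used for the peaks and baits, and can be other promoters of a gene. The Fabp1 promoter held 1 C/EBP and 1 DR1 match, that of Fabp2 1 C/EBP match, that of Slc27a2 1 DR1 match, and 1 of the 2 Vldlr entries held a C/EBP match, whereas those of Cd36, Slc27a1 and Slc27a4 held none. Of all 32851 promoters, 0.475% held the HNF4 string, 10.8% the C/EBP string and 8.46% the DR1 string. A match is a description of the sequence and not a binding site.

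Promoter interactions at a CHiCAGO score of at least 5 (a score of how far a contact exceeds the background for its distance) and within 1 Mb were listed per diet, and pooling left no replicate to test. The 10 genes had 134 distinct interactions on LD and 155 on CD, of which 119 were listed on both. Over the genome, 69.6% of 151203 LD interactions and 70.3% of 149798 CD interactions were on both lists. Fabp5 had the most, 49 on LD and 59 on CD, and 48 of these were on both (98.0% of LD and 81.4% of CD). As the first-listed end it had more interactions than 96.9% of all first-listed fragments on LD and 97.8% on CD. Fragments never listed first do not enter these shares or the median given below. Cd36 had 23 and 20 with 18 on both (78.3% and 90%), Lpl had 22 and 25 with 21 on both (95.5% and 84.0%), and Fabp4 had 18 and 19 with 16 on both (88.9% and 84.2%). Counted only as the first-listed end, over which the genome-wide median was 6, the numbers on LD and CD were 47 and 55 for Fabp5, 23 and 19 for Cd36, 22 and 24 for Lpl, 17 and 18 for Fabp4, 5 and 7 for Slc27a1, and 3 and 5 for each of Fabp1 and Fabp2. In all entries, Fabp1 and Fabp2 had 5 on LD and 7 on CD each with 3 on both, Slc27a1 had 11 and 15 with 11 on both, Slc27a2 had 1 and 4 with none on both, Vldlr had 1 on LD and none on CD, and Slc27a4 had none on either list. The fragment with the start of Slc27a1 also holds that of Nxnl1, the name it carries as a bait, so the interactions of these genes cannot be told apart.

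Scores of the interactions on both lists leaned different ways. At Cd36, 14 of 18 scored higher on LD (median 7.60 on LD and 6.50 on CD). At Fabp5, 36 of 48 scored higher on CD (median 8.28 on LD and 9.62 on CD). At Lpl, 18 of 21 scored higher on CD (median 8.16 on LD and 10.3 on CD), although its RNA was higher on LD. Over all shared interactions, 47.4% scored higher on LD. Neighbouring fragments share contacts and were not independent.

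The contacts of Cd36 reached away from the gene, with the highest LD score 143.7 kb from the bait (12.8 on LD and 9.15 on CD) and the highest CD score at 148.7 kb (11.9 on LD and 10.1 on CD). One CD entry counted for Cd36 joins the bait of Gnat3 to a fragment named for Cd36 that is not itself a bait. The highest scores of Lpl were 17.1 on LD and 19.4 on CD at 142.3 kb, and 18.3 and 17.9 at 146.3 kb. The promoters of Fabp5 and Fabp4 were listed with each other on both diets, with 199.7 kb between the midpoints of the fragments and a score of 8.31 on LD and 6.84 on CD. Fabp5 also reached other genes of its family on chromosome 3, Pmp2 at 172.3 kb (7.60 on LD and 5.09 on CD), Fabp12 at 288.6 kb (20.9 on LD and 22.2 on CD) and, on the CD list, Fabp9 at 183.7 kb (5.43). Its highest scores were at 232.5 kb (24.5 on LD and 28.9 on CD) and 239.2 kb (24.7 and 26.3). Fabp1 was joined to Immt, a gene of mitochondrial cristae 632.5 kb away, with a score of 5.85 on LD and 13.9 on CD. Fabp2 was joined to Fnbp1l at 275.0 kb (10 on LD and 6.23 on CD).

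**Figure D4:**
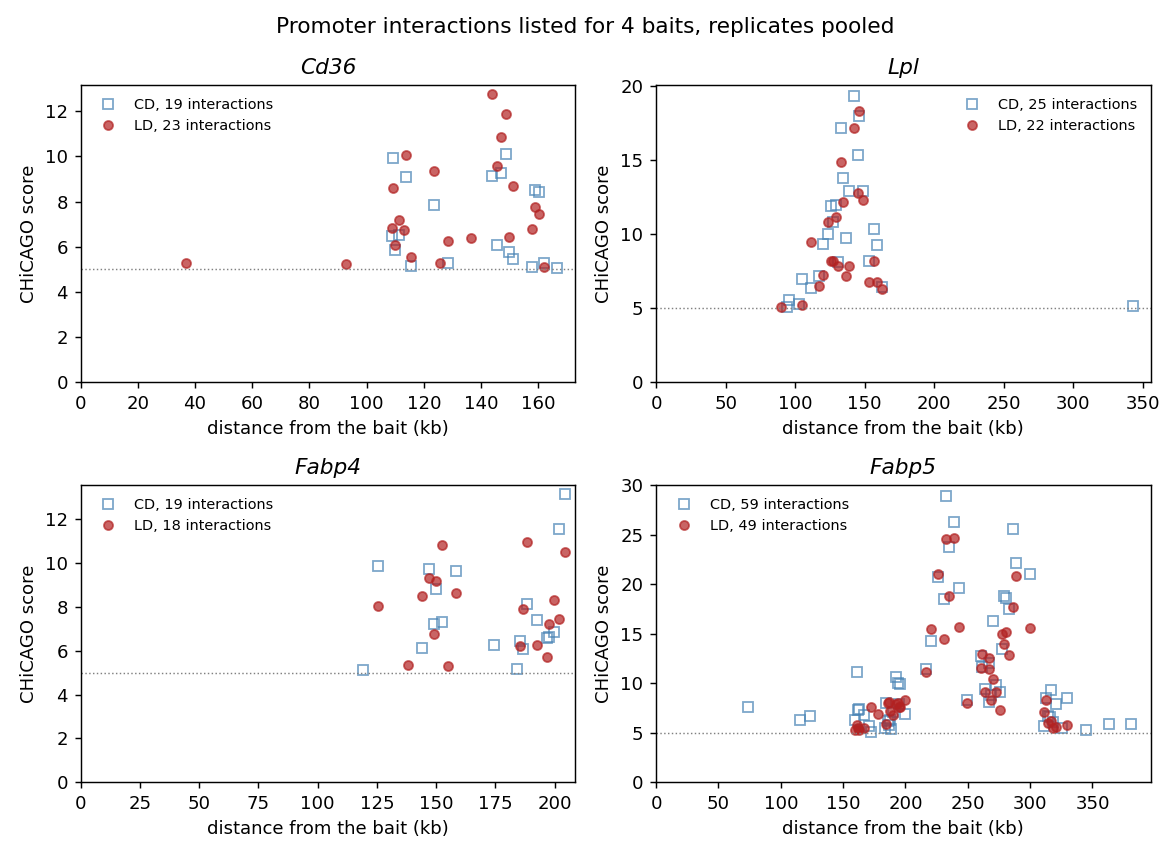
CHiCAGO score (vertical) against distance from the bait in kb (horizontal) for the interactions of Cd36, Lpl, Fabp4 and Fabp5, with filled circles for LD and open squares for CD, from lists pooled over replicates. The dotted line marks the score of 5, and the CD entry from the bait of Gnat3 is left out, which leaves 19 CD interactions at Cd36. Most interactions appear on both lists at nearly the same distances, and at Lpl they sit between 90 and 162.8 kb apart from 1 CD interaction at 343.0 kb.

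H3K27ac on the contacted fragments was then measured for the 9 genes with an interaction on either list, a comparison chosen after these data had been examined. The diets did not overlap for 3 of the 9, Lpl, Cd36 and Fabp4, beside 25.7% of 9624 baited fragments. The 2 shares are not on like sets. The 9624 are first-listed ends with at least 1000 bp covered on average, and the 9 genes were not filtered so. Vldlr, with means of 706 bp on LD and 773 bp on CD, lay under that limit. The 26 fragments contacted by Lpl span 68492 bp. Peaks covered 6152, 5952 and 6352 bp of them in the LD libraries, and no peak was called on any of them in the 3 CD libraries. In the LD libraries the peaks lay on fragments 111.7 to 142.3 kb from the bait, and 21 of the interactions of Lpl were on both lists. The 24 fragments contacted by Cd36 were covered over 12982, 13454 and 14254 bp on LD and 9876, 9404 and 6569 bp on CD, 1.57-fold in the means, a difference of 4947.0 bp that was 2801.7 bp on the fragments listed on both diets. The 21 fragments contacted by Fabp4, which reach from upstream of Fabp5 across that gene into the stretch between Fabp5 and Fabp4, were covered over 15854, 15045 and 14816 bp on LD and 26021, 22421 and 19339 bp on CD, 1.48-fold lower on LD. The largest part lay on the locus over Fabp5 given above, so the same peaks enter both comparisons. Its fragment chr3:10016605-10023219 was covered over 2420, 2020 and 2420 bp on LD and 6615, 5415 and 4015 bp on CD. The fragments contacted by Fabp5 itself overlapped, at 56360 ± 4311 bp on LD and 58476 ± 2029 bp on CD (SD, n = 3 each). The median ratio of LD to CD over the 9624 baited fragments was 1.07. Counted by interactions, 3 of 22 contacted ends of Lpl on LD carried H3K27ac in all LD libraries and 0 of 25 on CD, and 9 of 23 ends of Cd36 on LD (39.1%) and 4 of 20 on CD (20%), beside 27.1% and 26.7% over the genome.

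**Figure D5:**
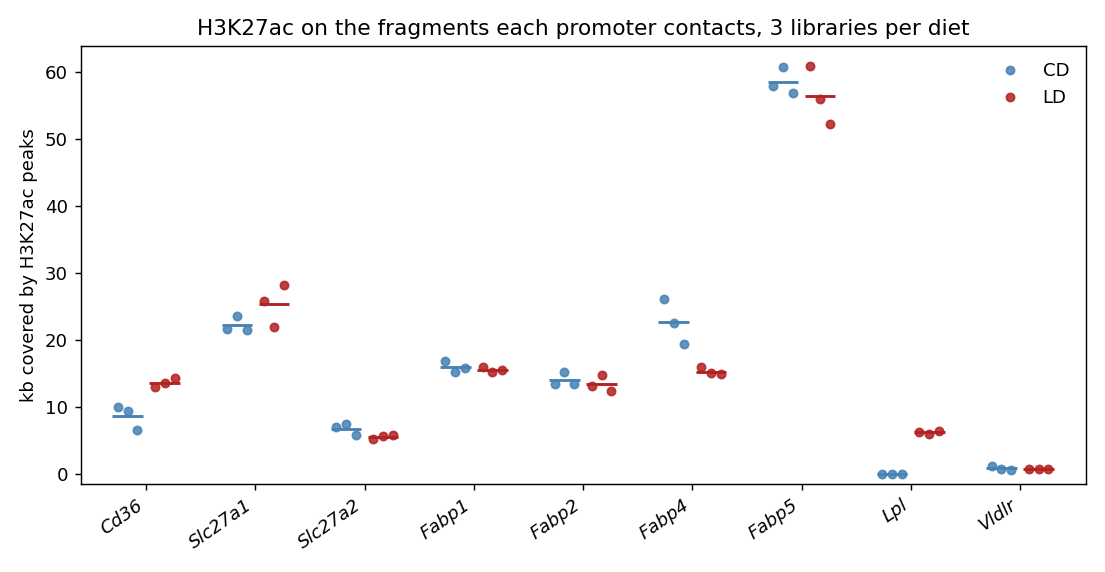
Length covered by H3K27ac peaks on the fragments that each promoter contacts on either diet, in kb, with a point per library (3 per diet) and a bar at the mean. Lpl lies near 6 kb in all LD libraries and at 0 in all CD libraries, Cd36 lies higher on LD, Fabp4 lies lower on LD, and the other 6 genes overlap between the diets.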

How the data were processed

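The 10 genes and the gene lists were chosen with earlier results of these data known. Groups came from the diet in the sample labels. The labels number the libraries and do not name the animals, so p-values measure the spread between libraries. Coordinates are mm9, the build of the deposited files. Reads were aligned by the authors with Bowtie 0.12.8 or STAR 2.5, per the submitters' processing notes.

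For RNA-seq, the authors deposited raw counts per RefSeq gene (featureCounts 1.5.0-p1, by strand) and TPM values. For H3K27ac, the deposited lists hold SICER peak intervals per library, from which the length covered was computed. For Hnf4α and C/EBPα, the deposited HOMER lists give peak heights per library, a signal scaled by the authors to a common depth. For PCHi-C, the authors deposited CHiCAGO scores of pooled replicates. Input libraries, domain lists and the authors' own table of differential expression were not used here. The deposited lists of H3K27ac peaks give no read depth.

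Counts were tested with edgeR 4.0.16 in R 4.3.3 (TMM, filterByExpr, robust quasi-likelihood) over 13494 genes, and called at a Benjamini-Hochberg adjusted p under 0.05 and a fold change above 1.2. CPM used TMM library sizes. Covered bases (plus 1000) and summed heights (plus 10) within 20 kb of each gene were tested on a log2 scale with limma 3.58.1 (trend, robust), for genes with a mean of at least 1000 bp or a height of 5. A fold change on that scale understates the change of low values. Tests were checked on simulated data. All 10 genes are named. From the other lists, the called genes with the greatest changes (at most 3 a direction) are named, and for each called gene the 3 most similar, except that results of some genes that these rules would name are not reported here. Alternatives were DESeq2 1.42.0, its size factors, other filters, limma on log2 TPM plus 1 or 0.1, other pseudocounts, a window around the start site, scaling, a replicate block and the omission of each library. The lists were read with Python 3.11.15 and pandas 2.3.3. Sequences came from mm9 and from the RefSeq promoters of GRCm38.p6.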

Additional observations from a re-analysis of the deposited data

How the results depend on the processing

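The count of the 10 genes called by RNA-seq was 7 under each alternative run except the omission of 1 library, where it ranged from 7 to 8 (8 without CD replicate 5, with Slc27a1 added), and 175 of 180 single log2 fold changes kept their direction and call. Slc27a2, never called, changed sign in 4 of the omissions, with values from -0.052 to 0.076. Genes called over the whole table ranged from 2833 to 3479 when a library was left out.

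H3K27ac calls were less stable. Of the 10 genes, 4 were called in the test as planned, 2 in a window around the start site (Cd36 and Fabp5), 2 after scaling to the total coverage (Fabp5 and Lpl), and from 0 to 3 when a library was left out. No direction of the 10 genes changed in these settings. For C/EBPα, 1 gene was called after scaling to the shared peaks (Cd36) and 0 otherwise.

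Directions of uncalled factor differences turned with the setting. For Hnf4α, the log2 fold change of Slc27a1 was -0.041 in a window around the start site, and that of Vldlr was 0.793 with a pseudocount of 1 and 0.004 after scaling. For C/EBPα after scaling, Fabp1 was at 0.132 and Slc27a4 at 0.167. Leaving out 1 library moved Hnf4α at Fabp1 between -0.8 and 0.268, at Fabp2 between -0.151 and 1.457, at Slc27a1 between -0.186 and 0.462, at Slc27a2 between -0.926 and 0.465, at Slc27a4 between -1.05 and 0.913 and at Vldlr between -1.199 and 0.978. It moved C/EBPα at Fabp1 between -0.524 and 0.198, at Slc27a1 between -0.47 and 2.316, at Slc27a4 between -0.632 and 0.52 and at Lpl between -1.175 and 0.117. With 2 libraries a diet, this leaves a lone library that is assumed to vary like the others. The cause was not tested.

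At a CHiCAGO score of at least 7, the 10 genes had 88 interactions on LD and 88 on CD. On fragments listed on both diets, the H3K27ac difference, LD minus CD, was 2801.7 bp at Cd36 (4947.0 bp on fragments of either diet), -7838.3 bp at Fabp4 (-7355.4 bp) and 6152.0 bp at Lpl (6152.0 bp), an alternative chosen after seeing the data. Among genes whose diets overlapped, the sign turned at Fabp5 (from -2116.3 to 175.7 bp) and Fabp2 (from -571.0 to 164.3 bp), and Slc27a1 went from 3117.3 to 1266.7 bp.

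The replicate numbers did not pair the samples (r between same-numbered libraries from -0.115 to 0.241 for RNA-seq and from -0.122 to 0.161 for H3K27ac). With a replicate block, 7 genes were called by RNA-seq, 3 by H3K27ac, 0 by Hnf4α and 0 by C/EBPα.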
